A study of Mus musculus with 10 samples.

Results

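The 9 genes described here encode the receptor chains, kinases and transcription factors through which interferons signal: the receptor chains Ifnar1, Ifnar2, Ifngr1 and Ifngr2, the Janus kinases Jak1, Jak2 and Tyk2, and the factors Stat2 and Stat3. They were taken by name from the 21994 genes that the arrays measured with a probe set of a single gene symbol, using for each the probe set with the highest mean over all 10 arrays. Each of the 9 had exactly 1 such probe set, so the levels decided nothing, and all 9 passed the filter on low values, which left 13298 genes tested. The cells were splenic CD11c+ dendritic cells (DCs), antigen-presenting cells, pulled out of the spleen on magnetic beads rather than by a cell sorter. The donors were either wild-type (WT) mice or C3ar1-/-C5ar1-/- mice (DKO), which lack the receptors for the complement fragments C3a and C5a. Mice received either vehicle (unstimulated) or 100 µg of CpG, unmethylated DNA that the receptor Tlr9 senses, and cells were taken 4 h later. There were 2 WT unstimulated, 3 WT CpG, 2 DKO unstimulated and 3 DKO CpG samples, each on 1 array. The sources used here do not give the age, sex or strain of the mice, or say whether animals were pooled. Nothing states that samples of a group came from separate animals, so the p-values measure the spread between these samples, which may be technical.

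Type I interferons bind a receptor made of Ifnar1 and Ifnar2, which carry the kinases Tyk2 and Jak1. These phosphorylate STAT factors, among them Stat2, which acts with Irf9 at the interferon-stimulated response element (ISRE) of antiviral genes. Interferon gamma binds Ifngr1, the chain that holds the ligand and Jak1, together with Ifngr2, which holds Jak2, and its signal reaches genes with a gamma-activated site (GAS). Stat3 is activated mainly by cytokines of the Il6 and Il10 families. In DCs these routes drive antiviral genes and the presentation of antigen.

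All values are log2 intensities, so a difference of 1 is a 2-fold change on the scale of the array. Array medians were 5.5 to 5.56, and every member lay well above them in each array. The markers of conventional DCs were high in all samples, with a mean of 10.78 to 11.24 over the 8 measured markers; Itgax, which encodes CD11c, measured 10.72 to 11.89 and Flt3, a DC growth factor receptor, 9.79 to 10.59. The 11 neutrophil markers averaged 6.95 to 8.75 among WT arrays and 5.37 to 6.96 among DKO arrays, so nearly all DKO arrays were lower; of these markers Ly6g exceeded the array median in WT CpG 2 (6.36) and in no other array. The 11 splenic macrophage markers averaged 8.78 in DKO unstimulated 2 and 8.47 in DKO CpG 3, against 10.01 to 10.50 in the other 8 arrays. B cell markers averaged 5.79 to 6.96, T cell markers 5.98 to 6.85, plasmacytoid DC markers 6.72 to 7.31 and monocyte markers 7.49 to 8.33. The mean of 3 Y-linked genes was 7.33 to 7.93 in DKO unstimulated 1, DKO CpG 1 and DKO CpG 2 and 3.21 to 3.68 in the other 7 arrays. Both DKO groups thus held arrays with and without this signal, which came from different mice or pools, while no WT array had it. The DKO arrays without it, DKO unstimulated 2 and DKO CpG 3, were also those with the low macrophage means. Their sample titles were numbered 23 and 24, above those of the other DKO arrays. Fewer cells of a type and less RNA per cell cannot be told apart in such bulk samples.

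CpG changed the system unevenly. In WT DCs 4 of the 9 genes passed the test at an adjusted p under 0.05 (limma, Benjamini-Hochberg over all 13298 genes), with Stat2, Stat3 and Jak2 higher and Ifngr1 lower. Of all genes, 21.6% passed, 8.24% higher and 13.4% lower. In DKO DCs 2 of the 9 passed, Stat3 higher and Ifngr1 lower, while 10.3% of all genes did (4.56% higher and 5.76% lower). Averaged over both genotypes, 6 of 9 passed against 29.8% of all genes (11.2% higher and 18.6% lower): Stat2, Stat3, Jak2 and Jak1 were higher and Ifngr1 and Ifnar2 lower. The median change of the 9 genes was -0.03 in that average, equal to the median of -0.03 over all genes tested, since rises and falls were both present. The stimulated and unstimulated arrays did not overlap for 8 of the 9 genes in WT, against 52.4% of all genes, and for 5 of 9 in DKO, against 37.7%. Tyk2 is counted among the 8, although its nearest stimulated and unstimulated WT arrays both round to 8.84. The counts over all genes depended on single arrays: 2873 in WT became 1412 without WT unstimulated 1 and 1273 without WT unstimulated 2, and 1372 in DKO became 770, 422 and 731 without DKO unstimulated 1, DKO unstimulated 2 and DKO CpG 1.

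Ifngr1, the ligand-binding chain of the interferon gamma receptor, moved furthest among the receptors. It measured 11.19 and 11.41 in WT unstimulated DCs and 9.73, 9.59 and 9.67 after CpG. All 3 stimulated arrays were more than 1 log2 unit below both unstimulated ones. The DKO arrays read 11.49 and 11.47 when unstimulated and 10.39, 10.82 and 10.70 when stimulated, again without overlap, but every DKO CpG array stood above every WT CpG array. The fall was -1.64 ± 0.14 (SE) in WT, or 3.11-fold (95% interval -1.95 to -1.32, adjusted p = 7.47e-05), and ranked 74 among the falls of all 13298 genes. In DKO it was -0.85 ± 0.14, or 1.8-fold (interval -1.16 to -0.53, adjusted p = 0.00535). Markers of cell types moved with CpG in WT as well. Of 8 conventional DC markers, 3 fell and 1 rose, with a median change of -0.18: Itgax changed by -0.76 (adjusted p = 0.00492), Flt3 by -0.48 (adjusted p = 0.0113) and Batf3, a factor of cross-presenting DCs, by 0.61 (adjusted p = 0.0173). Of 7 B cell markers 3 fell (median -0.62), and of 6 monocyte markers tested 2 fell and 1 rose (median -0.18). Of 7 T cell markers tested 1 fell, and of 7 plasmacytoid DC markers 1 rose and 1 fell (median -0.05). None of the 10 neutrophil and 11 macrophage markers tested passed, and with the mean of either list as a covariate the WT fall of Ifngr1 was -1.62 and -1.65. The part of DC, B cell, T cell and monocyte content in the Ifngr1 change was not tested. Its promoter is shown because this gene carries the largest receptor change; neither motif given below occurs in it.
Ifngr1, 250 bases before the RefSeq start, GRCm38.p6, chr10:19591699-19591948, plus strand: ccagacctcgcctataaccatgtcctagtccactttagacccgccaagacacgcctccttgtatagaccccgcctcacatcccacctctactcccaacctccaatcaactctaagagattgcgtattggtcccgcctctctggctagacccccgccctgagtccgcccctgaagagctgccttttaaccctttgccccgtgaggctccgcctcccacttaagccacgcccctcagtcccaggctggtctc

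Ifngr2, the accessory chain of the same receptor, did not share that pattern. It measured 9.84 and 9.83 in WT unstimulated DCs, 9.94, 9.89 and 9.66 in WT CpG, 9.96 and 9.89 in DKO unstimulated and 9.90, 9.94 and 9.78 in DKO CpG. All 10 values lay within 9.66 to 9.96 and stimulated and unstimulated arrays overlapped in both genotypes. The CpG change was 0.00 (95% interval -0.27 to 0.26, adjusted p = 0.984) in WT and -0.05 (interval -0.32 to 0.21, adjusted p = 0.847) in DKO. These intervals leave out a fall of the size measured for Ifngr1.

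Neither chain of the type I receptor passed within a genotype in the fit of all arrays. Ifnar1 measured 9.33 and 9.32 in WT unstimulated DCs and 9.0, 9.14 and 9.19 in WT CpG, then 9.45 and 9.20 in DKO unstimulated and 9.41, 9.76 and 9.30 in DKO CpG. The WT values were lower after CpG without overlap, and the DKO values overlapped. Neither difference passed, at -0.21 (adjusted p = 0.375) and 0.16 (adjusted p = 0.575). Ifnar2, the chain that binds interferon most tightly, measured 10.58 and 10.44 in WT unstimulated DCs and 10.31, 9.97 and 9.96 in WT CpG. Its DKO values were 10.45 and 10.52, then 10.25, 10.46 and 10.10 after CpG. Stimulated arrays were mostly below unstimulated ones, with overlap in DKO. The change was -0.43 ± 0.15 in WT (adjusted p = 0.0637) and -0.21 in DKO (adjusted p = 0.428). The WT change passed in 5 of 21 alternative settings, 2 of them without WT CpG 1 (-0.55, adjusted p = 0.0334) and without DKO CpG 3 (-0.43, adjusted p = 0.0495). The average of both passed, at -0.32 ± 0.10 (adjusted p = 0.0404), a call that 10 of 20 alternative settings lost, 8 of them by leaving out an array (any but WT CpG 1 and DKO CpG 2; -0.28 to -0.36, adjusted p = 0.0662 to 0.14). Ifnar2, Ifnar1 and Ifngr2 lie in that order on mouse chromosome 16 in RefSeq, with Il10rb, a chain of the Il10 and lambda interferon receptors, between Ifnar2 and Ifnar1. The Ifnar2 promoter is shown because it holds the GAS letters TTCNNNGAA, here in capitals, which read alike on both strands and occur in 7.02% of 32851 RefSeq mouse promoter windows of this length.
Ifnar2, 250 bases before the RefSeq start, GRCm38.p6, chr16:91372533-91372782, plus strand: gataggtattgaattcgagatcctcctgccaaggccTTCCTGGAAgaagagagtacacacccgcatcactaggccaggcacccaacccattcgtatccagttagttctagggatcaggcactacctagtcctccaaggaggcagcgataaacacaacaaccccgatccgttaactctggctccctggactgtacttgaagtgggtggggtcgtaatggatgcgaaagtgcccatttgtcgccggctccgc

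**Figure D1:**
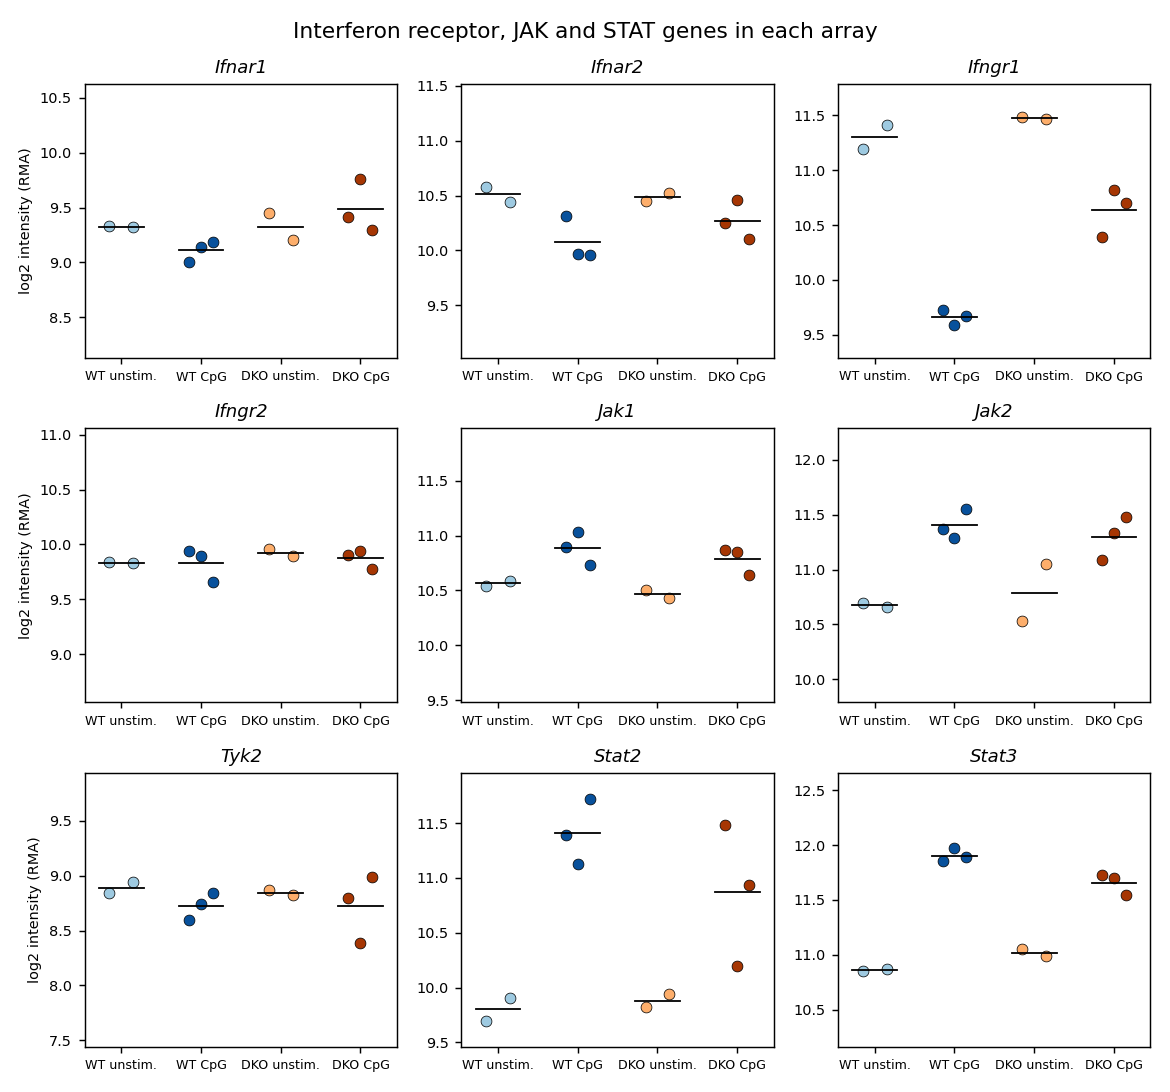
Log2 intensity of the 9 genes in each of the 10 arrays, in 1 panel per gene with a vertical span of equal size, each point an array grouped by genotype and stimulation and each bar a group mean. Ifngr1 after CpG sits at 9.59 to 9.73 in WT and 10.39 to 10.82 in DKO, and Stat3 is above 11.5 in all 6 CpG arrays.

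Among the kinases, Jak2 rose. This kinase serves Ifngr2 and the receptors of many growth factors and cytokines. It measured 10.70 and 10.66 in WT unstimulated DCs and 11.37, 11.29 and 11.55 in WT CpG, a clear separation. In DKO it measured 10.53 and 11.05, then 11.09, 11.33 and 11.48, where the lowest stimulated array lay just above the higher unstimulated one. The change was 0.72 ± 0.17 in WT (adjusted p = 0.0128); in DKO it was 0.51 ± 0.17 and did not pass (adjusted p = 0.0882). Without DKO unstimulated 1 the DKO change was 0.25 and without DKO unstimulated 2 it was 0.76, neither passing, while it passed in 5 of 21 alternative settings (0.54 to 0.68, adjusted p = 0.0158 to 0.0368), among them a fit that blocked on whether the sample's title number was below 20, a stand-in for an unassigned batch. The WT call was lost without either WT unstimulated array (adjusted p = 0.0724 without the first and 0.0871 without the other).

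Jak1, used by both interferon receptors, measured 10.54 and 10.59 in WT unstimulated DCs and 10.90, 11.03 and 10.73 in WT CpG. The DKO values were 10.50 and 10.43, then 10.87, 10.85 and 10.64. Stimulated arrays were above unstimulated ones in both genotypes without overlap, by the same 0.32. Neither passed alone (adjusted p = 0.102 in WT and 0.141 in DKO), although the WT change passed with that title block (0.38, adjusted p = 0.0317) and among arrays titled below 20 (0.40, adjusted p = 0.0467), and the average of both passed at 0.32 ± 0.09 (adjusted p = 0.0203), a call that 5 of 20 alternative settings lost, 3 of them by leaving out WT unstimulated 1, WT unstimulated 2 or DKO unstimulated 2 (0.30 to 0.33, adjusted p = 0.0539 to 0.0705). Tyk2, the kinase of Ifnar1, measured 8.84 and 8.94 in WT unstimulated DCs, 8.6, 8.74 and 8.84 in WT CpG, 8.87 and 8.82 in DKO unstimulated and 8.80, 8.39 and 8.99 in DKO CpG. The lowest and the highest value of Tyk2 were both in the DKO CpG group. Its changes were -0.17 in WT (interval -0.54 to 0.19, adjusted p = 0.533) and -0.12 in DKO (interval -0.48 to 0.25, adjusted p = 0.725).

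Stat2, the partner of Irf9 at the ISRE, rose most among the 9 genes in WT. It measured 9.70 and 9.91 in WT unstimulated DCs and 11.39, 11.13 and 11.72 in WT CpG. The DKO arrays read 9.82 and 9.94, then 11.48, 10.20 and 10.94 with CpG. The groups did not overlap in either genotype, but DKO CpG 2 lay close to the unstimulated arrays. The change was 1.6 ± 0.30 in WT, or 3.04-fold (adjusted p = 0.00418), and 1.0 ± 0.30 in DKO, or 1.99-fold (adjusted p = 0.0629), which did not pass. Without DKO CpG 2 the DKO change was 1.33 and passed (adjusted p = 0.00772). A call was also made with the title block (1.04, adjusted p = 0.0411). It was made too with the Y-linked mean (adjusted p = 0.0472) or the macrophage mean (adjusted p = 0.0447) as a covariate. Those covariates set the same DKO arrays apart as the title block, so they are not separate checks. The Stat2 promoter is shown because, of the 9, it alone holds the ISRE letters, searched on both strands as GAAA, then any 2 bases, then GAAA; here they lie on the other strand, so their reverse complement is in capitals, and it starts 222 bases before the RefSeq start. These letters occur in 2.98% of 32851 mouse promoter windows of this length, and a match is no evidence of binding.
Stat2, 250 bases before the RefSeq start, GRCm38.p6, chr10:128270248-128270497, plus strand: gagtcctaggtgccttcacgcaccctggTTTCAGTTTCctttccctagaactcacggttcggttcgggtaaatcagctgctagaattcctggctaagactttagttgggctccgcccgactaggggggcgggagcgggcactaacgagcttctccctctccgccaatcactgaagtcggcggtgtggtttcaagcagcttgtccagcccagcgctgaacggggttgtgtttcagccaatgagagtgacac

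Stat3, the factor of Il6 and Il10 signals, rose in both genotypes. It measured 10.85 and 10.87 in WT unstimulated DCs and 11.85, 11.97 and 11.89 in WT CpG. In DKO it measured 11.05 and 10.99, then 11.73, 11.70 and 11.54. All 6 stimulated arrays were above all 4 unstimulated ones, and all 3 WT CpG arrays were above all 3 DKO CpG arrays. The rise was 1.05 ± 0.11 in WT, or 2.07-fold (adjusted p = 0.000181), and 0.63 ± 0.11 in DKO, or 1.55-fold (adjusted p = 0.00643). The DKO call was lost without DKO unstimulated 2 (0.60, adjusted p = 0.0546) and when the 2 DKO groups were fitted alone (0.63, adjusted p = 0.0567). Its promoter is shown for comparison with Stat2, since both genes rose in WT; it holds neither motif.
Stat3, 250 bases before the RefSeq start, GRCm38.p6, chr11:100939541-100939790, minus strand: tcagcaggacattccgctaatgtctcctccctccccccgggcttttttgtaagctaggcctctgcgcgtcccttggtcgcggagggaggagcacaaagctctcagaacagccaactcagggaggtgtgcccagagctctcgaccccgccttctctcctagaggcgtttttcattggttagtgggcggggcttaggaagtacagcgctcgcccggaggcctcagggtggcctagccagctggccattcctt

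**Figure D2:**
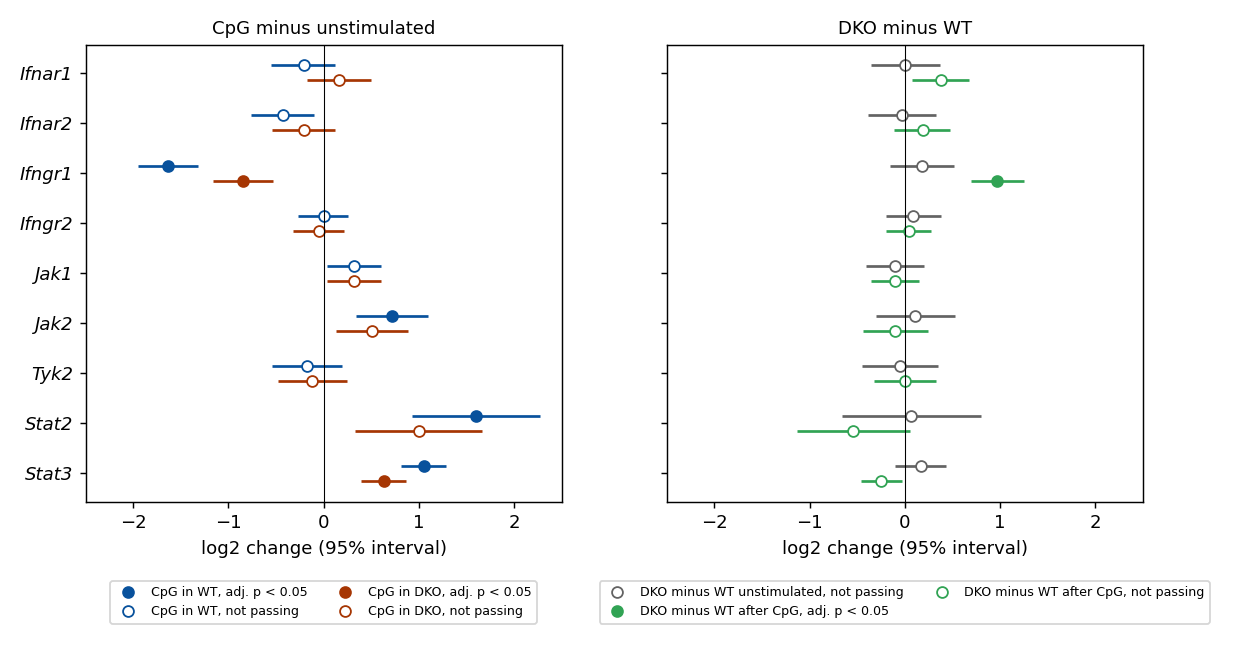
Changes of the 9 genes on the log2 scale with 95% intervals from the limma fit, CpG minus unstimulated in each genotype at left and DKO minus WT without and after CpG at right; filled points passed at an adjusted p under 0.05. Ifngr1 is filled in 3 of the 4 contrasts and lies at -1.64, -0.85 and 0.97.

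Before stimulation, no difference between the genotypes passed for these genes (limma). The count was 0 of 9, against 0.00752% of all genes (1 gene), and 0 of 9 reached an unadjusted p under 0.05, against 616 of all genes; groups did not overlap for 4 of 9, against 34.2% of all genes. The largest difference was 0.18 for Ifngr1 (interval -0.16 to 0.52, adjusted p = 0.992). With the Y-linked mean as a covariate 404 genes passed, none of them among the 9.

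After CpG, Ifngr1 was higher in DKO than in WT and was the single member called, against 0.12% of all genes (16 of 13298; 0.0526% higher and 0.0677% lower). The difference was 0.97 ± 0.13, or 1.96-fold (interval 0.70 to 1.25, adjusted p = 0.0223), seen in all 3 DKO CpG arrays against all 3 WT CpG arrays. It had the 7th smallest p of the contrast. The other genes higher in DKO were Abca3, a lipid transporter (1.25), Atp10d (0.96), Glo1, which detoxifies methylglyoxal (0.96), Mapk14, the stress kinase p38 alpha (0.94), Tmem160 (0.74) and Hectd4 (0.72), named here because few genes passed. The size stayed between 0.88 and 1.10 in 21 alternative settings, but the call was lost in 8 of them, among them the fit of the 2 CpG groups alone (0.97, adjusted p = 0.0915) and those that left out WT CpG 1, WT CpG 2, DKO CpG 2, DKO CpG 3 or either DKO unstimulated array (0.88 to 1.01, adjusted p up to 0.124). Among arrays titled below 20 the difference was 0.94 (adjusted p = 0.0478), and between the single WT and DKO CpG arrays with higher title numbers it was 1.03, with no test. The CpG effects themselves differed between genotypes by 0.79 ± 0.20 (interval 0.35 to 1.23, unadjusted p = 0.00238), which did not pass over all genes (adjusted p = 0.729). No member passed in this contrast of effects, against 0.00752% of all genes; 2 of the 9, Ifngr1 and Stat3, were under an unadjusted 0.05, as were 752 genes. Averaged over stimulation, no member passed (0.143% of all genes did; 1 of 9 was under an unadjusted 0.05), and Ifngr1 was 0.58 higher in DKO (adjusted p = 0.0717); without DKO CpG 1 it passed at 0.64 (adjusted p = 0.026).

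Neutrophil markers were lower in DKO than in WT after CpG, beside the higher Ifngr1. The 10 tested differed by -0.34 to -3.12 (median -1.93), and none passed; S100a8, the neutrophil calcium-binding gene, differed by -2.79 (adjusted p = 0.23). With the mean of the neutrophil markers as a covariate, Ifngr1 was 0.92 higher in DKO and did not pass (adjusted p = 0.123). Within the DKO CpG group the neutrophil means were 6.96, 6.70 and 5.37 and the macrophage means 10.26, 10.39 and 8.47, beside Ifngr1 values of 10.39, 10.82 and 10.70. DKO CpG 1 had the highest neutrophil mean and the lowest Ifngr1 value, and DKO CpG 3 the lowest neutrophil mean and the middle Ifngr1 value. With 3 arrays, no conclusion was drawn from these orders. With the macrophage mean as a covariate the difference was 0.96 (adjusted p = 0.0113), and with the Y-linked mean it was 1.01 (adjusted p = 0.00496). Both covariates set the same DKO arrays apart, so these fits are not separate checks. The 8 conventional DC markers differed by -0.32 to 0.53 (median 0.10), with Batf3 lowest and Itgax highest, and none passed. The part of neutrophil and DC content in the Ifngr1 difference was not tested further.

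The remaining members showed smaller gaps between the genotypes after CpG, none of which passed. Ifnar1 was 0.38 higher in DKO (interval 0.08 to 0.68, adjusted p = 0.241), and its groups did not overlap. Stat3 was 0.25 lower (interval -0.46 to -0.03, adjusted p = 0.283), also without overlap, and Stat2 was 0.54 lower with overlap (adjusted p = 0.401). The Stat2 difference was -0.20 without DKO CpG 2 and -0.84 without DKO CpG 1, and the Ifnar1 difference was 0.24 without DKO CpG 2; none of these passed. In all, 3 of 9 genes had groups that did not overlap, against 19.2% of all genes. The 5 others, Ifnar2, Ifngr2, Jak1, Jak2 and Tyk2, differed by -0.10 to 0.19.

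The other genes of the pathway were counted from lists, which were chosen with earlier results of these data known. Of all genes, 8.24% rose and 13.4% fell in WT, and 4.56% rose and 5.76% fell in DKO. Of the 4 further STAT genes tested, 2 rose in WT and 1 in DKO. Stat5a, a factor of growth factor and cytokine signals, rose by 1.64 ± 0.19 in WT (adjusted p = 0.000311) and 1.39 ± 0.19 in DKO (adjusted p = 0.00222). Stat4, the factor of Il12 signals, rose by 0.45 in WT (adjusted p = 0.0403) and measured 0.19 higher in DKO (adjusted p = 0.443). Stat5b and Stat6 did not pass in either genotype. Jak3 was left out, since its probe set carries several gene symbols.

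Among 6 partner genes, 2 rose and 1 fell in WT and none passed in DKO. Irf9, the DNA-binding partner of Stat2, rose by 0.80 in WT (adjusted p = 0.00831) and measured 0.55 higher in DKO (adjusted p = 0.0723). Il10ra, the ligand-binding chain for Il10, rose by 0.41 in WT (adjusted p = 0.0488). Il6ra, the Il6-binding chain that signals to Stat3, fell in WT as Ifngr1 did. It measured 10.59 and 10.64 in WT unstimulated DCs, 9.81, 9.43 and 9.66 in WT CpG, 10.67 and 10.66 in DKO unstimulated and 10.16, 10.66 and 10.37 in DKO CpG. Its WT fall was -0.98 ± 0.16 (adjusted p = 0.00183), the DKO change was -0.27 (adjusted p = 0.332), and the DKO excess after CpG, 0.76 ± 0.14, did not pass (adjusted p = 0.0618).

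Several feedback genes that switch off JAK-STAT signals rose with CpG. Of 14 inhibitors, 6 rose and 1 fell in WT, and 4 rose and 2 fell in DKO; the median change was 0.34 and 0.25, against -0.04 over all genes in each genotype. Ptpn1 and Ptpn2, phosphatases that act on JAKs and STATs, rose by 1.70 and 1.18 in WT (adjusted p = 6.39e-05 and 0.000165) and by 1.62 and 0.52 in DKO (adjusted p = 0.000257 and 0.0222). Usp18, which blocks Jak1 at Ifnar2, rose by 2.28 in WT (adjusted p = 0.000898) and 1.65 in DKO (adjusted p = 0.0119). Socs1, an inhibitor of JAKs, measured 7.05 and 6.92, then 8.02, 8.18 and 8.45 after CpG in WT, and 7.37 and 7.19, then 7.68, 7.64 and 8.0 in DKO. It rose by 1.23 in WT (adjusted p = 0.000526) and did not pass in DKO at 0.49 (adjusted p = 0.0766). Socs3, which restrains Stat3 signals, rose by 1.21 in WT (adjusted p = 0.0325) and 2.04 in DKO (adjusted p = 0.00643); its DKO unstimulated arrays measured 6.70 and 5.31, so the starting level varied widely. Ptprc, the phosphatase CD45, fell in both, by 0.46 (adjusted p = 0.0161) and 0.41 (adjusted p = 0.0476). No inhibitor passed in DKO minus WT after CpG.

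**Figure D3:**
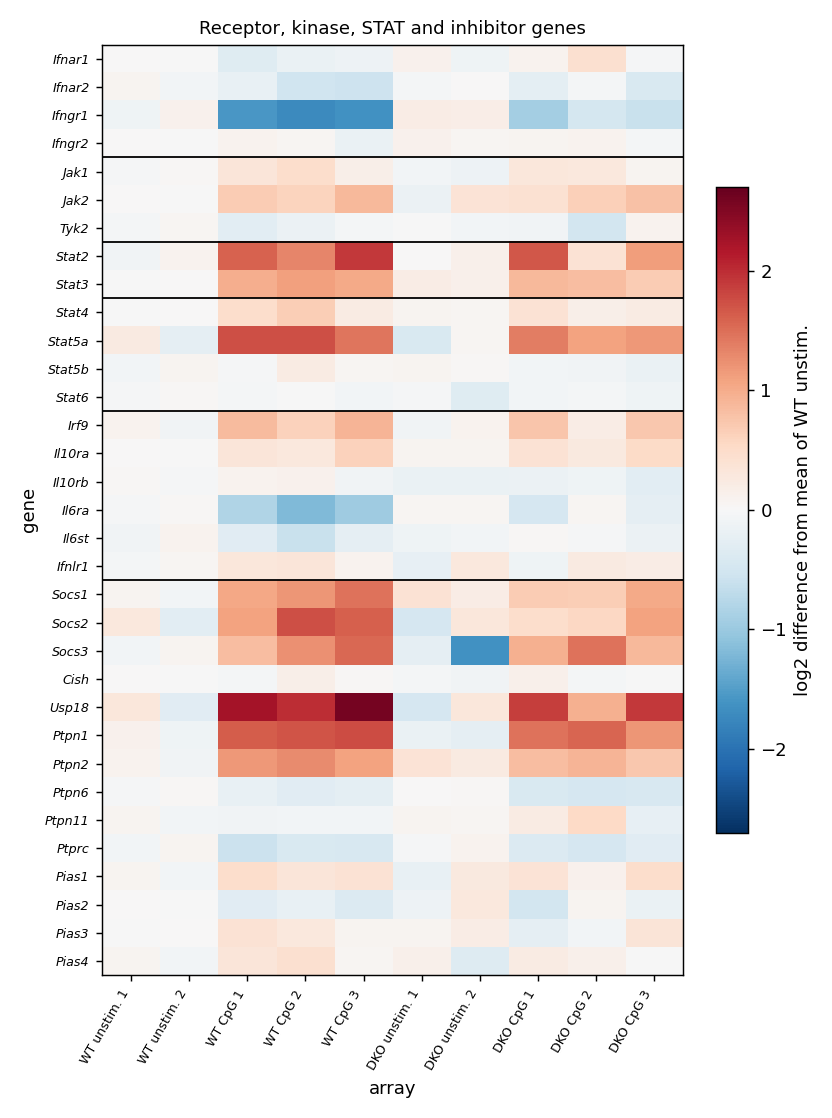
Log2 difference from the mean of the WT unstimulated arrays for the 9 genes and the further STAT, partner and inhibitor genes, with arrays in columns and genes in rows, red for higher and blue for lower. The blue row of Ifngr1 is deepest in the 3 WT CpG arrays, and Stat2, Stat3, Stat5a, Usp18 and Ptpn1 are red in the CpG columns.

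Interferon transcripts themselves were mostly low. Of 19 measured, 10 passed the filter on low values. Ifnb1, encoding interferon beta, measured 4.16 and 3.98 in WT unstimulated DCs and 5.87, 5.74 and 4.55 in WT CpG, then 3.90 and 3.96 in DKO unstimulated and 5.6, 5.07 and 4.31 in DKO CpG. Stimulated arrays were higher, but only 3 of them exceeded the array median and all 4 unstimulated ones lay below it. Ifnb1 thus passed the filter through the CpG arrays alone, so no test is given for it. Of the other 9 interferon genes, none passed in either genotype, and Ifna14 rose in the average of both by 0.39 (adjusted p = 0.0235). Ifng, encoding the ligand of Ifngr1, measured 6.57 and 6.76, then 7.70, 8.39 and 7.78 in WT, and 7.20 and 6.16, then 8.46, 7.35 and 6.20 in DKO. The DKO groups overlapped, and neither change passed (1.29, adjusted p = 0.114 and 0.66, adjusted p = 0.502).

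Most listed targets of Stat2 rose. Of 20 ISRE target genes, 18 rose in WT and 17 in DKO, against 8.24% and 4.56% of all genes. Their median changes were 2.12 and 1.56. Ifit1, Oasl1, Eif2ak2, Rtp4 and Ifih1, all antiviral genes, rose by 3.47, 2.69, 2.18, 2.11 and 1.83 in WT (adjusted p = 0.000898, 0.000837, 0.000405, 0.000323 and 0.00105). Of 14 GAS targets, 9 rose and 2 fell in WT, and 7 rose and 2 fell in DKO, with medians of 0.89 and 0.59. Among them Gbp5 and Gbp4, guanylate-binding defence proteins, rose by 2.79 and 2.35 in WT (adjusted p = 0.000251 and 0.000182), and Icam1, an adhesion molecule, by 1.28 (adjusted p = 0.000286). Irf8, a factor for DC development, fell by 1.32 in WT (adjusted p = 0.000402) and 0.91 in DKO (adjusted p = 0.00745). Of 11 Stat3 targets, 5 rose and 1 fell in WT, and 4 rose and 1 fell in DKO; Bcl3, a nuclear inhibitor of kappa B protein, rose by 1.82 and 1.78 (adjusted p = 4.58e-05 and 0.000149). None of the targets in these 3 lists passed in DKO minus WT after CpG; there the median difference was -0.69 for ISRE targets, -0.27 for GAS targets and -0.12 for Stat3 targets, against 0.02 over all genes.

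Stat2 and the ISRE targets were low in the same stimulated array. The mean of the 20 ISRE targets was 8.13 and 7.73 in WT unstimulated DCs, 9.95, 9.77 and 10.36 in WT CpG, 7.65 and 7.76 in DKO unstimulated and 9.72, 8.59 and 9.56 in DKO CpG. DKO CpG 2 had the lowest mean and the lowest Stat2 value, 10.20, of the 6 CpG arrays. The mean of the GAS targets was lowest there too, 9.02 against 9.28 to 9.74 in the other CpG arrays, as was Irf9 (9.29). The mean of the Stat3 targets in DKO CpG 2, 9.27, lay between those of the other DKO CpG arrays (9.31 and 9.05). Its Stat3 value, 11.70, and its Ptpn1 value, 9.85, lay within the range of the other DKO CpG arrays or above it. Its Ifngr1, Ifnar1 and Ifnar2 values, 10.82, 9.76 and 10.46, were the highest of the 6 CpG arrays. Its Tyk2 value, 8.39, was the lowest of them. The neutrophil marker mean of that array, 6.70, lay between those of the other DKO CpG arrays, and its macrophage mean, 10.39, was the highest of the 3.

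**Figure D4:**
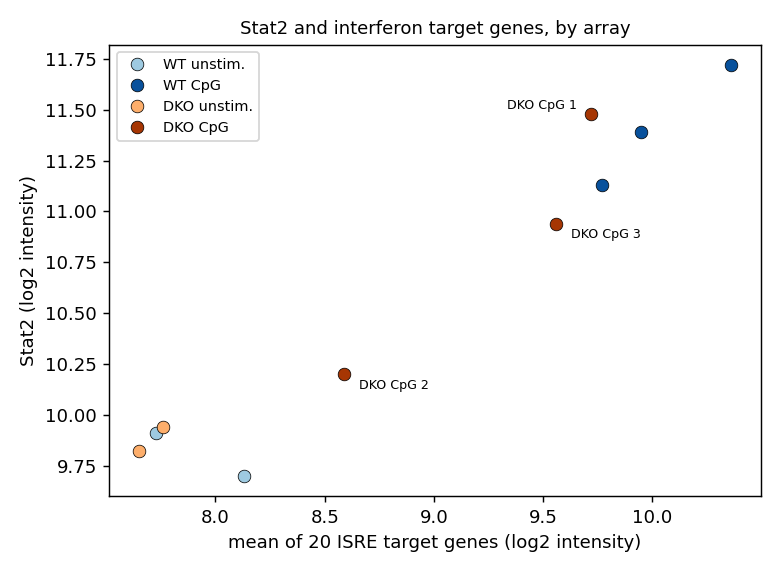
Stat2 log2 intensity on the vertical axis against the mean log2 intensity of 20 ISRE target genes on the horizontal axis, 1 point per array, coloured by group. DKO CpG 2 lies at 8.59 and 10.20, between the 4 unstimulated arrays and the other 5 CpG arrays.

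The genes whose values were most alike to each member over the 10 arrays were ranked by Pearson's r among 12131 genes; the arrays fall into stimulated and unstimulated sets, so these are descriptions. For Ifngr1 they were Kat6b (0.993) and Pld4 (0.991). For Stat2 they were Rnf213 and Zc3hav1 (0.989 each), and for Stat3 Pwp1 (0.994) and Mmp14 (0.987). Jak2 was most like Otulin (0.978) and Scimp (0.972), Jak1 like Tax1bp1 (0.981) and Gsr (0.975), and Ifnar2 like Psmc3ip (0.958) and Cinp (0.953). Ifngr2 was most like Gpha2 (0.974) and Arhgap33os (0.919), Tyk2 like Ppp2r5e (0.946) and Lss (0.906), and Ifnar1 like Atl1 (0.924) and Akt1 (0.922).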

How the data were processed

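Expression was measured on Affymetrix Mouse Gene 2.0 ST arrays. The authors deposited 1 log2 intensity for each probe set, computed by RMA (Affymetrix Expression Console), per the submitters' processing notes; RMA corrects background, normalizes arrays together and summarises probes. The sources used here do not give versions, the genome build or whether RMA was run once on all 10 arrays. No detection calls were used.

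Of 41345 probe sets, 23521 had 1 gene symbol (1814 had several, 16010 none) and 23328 matched RefSeq by gene identifier. A gene was tested where it exceeded the array median in at least 2 of 10 arrays. limma 3.58.1 (lmFit, eBayes; R 4.3.3) fitted 4 group means to all 10 arrays, with two-sided tests, Benjamini-Hochberg adjustment over the 13298 genes and a threshold of 0.05. The number of arrays limits the precision. The labels name a kit for a first batch without assigning samples, so title numbers from 20 upward served as a stand-in for batch. The members and gene lists were chosen with earlier results of these data known. Genes named from the pathway lists were up to 5 per list with the smallest p for CpG averaged over genotypes, plus fixed names. For some lists fewer are named. The code was tested on simulated data in which 200 genes were changed 2-fold. The fit recovered 39.0% of them for the difference of CpG effects and 68.0 to 82.5% for the other contrasts simulated. False calls made up 3.55 to 8.24% of the calls. The simulated noise was independent between genes, with no other differences between groups, batches or cell content. These rates therefore need not hold for the real data. Promoter sequences are RefSeq's (GRCm38.p6). Alternatives covered filters, normalization, eBayes options, covariates, blocks and each array left out.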

Additional observations from a re-analysis of the deposited data

How the results depend on the processing

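The number of the 9 genes called for CpG in DKO, 2, was 1 when the DKO groups were fitted alone and 4 with the title series as a block, with the Y-linked mean as a covariate or with the macrophage mean as a covariate; leaving out an array gave 1 to 3, with 1 without DKO unstimulated 2. For DKO minus WT after CpG, 1 became 0 with the compared groups alone and 0 with the neutrophil covariate, and leaving out an array gave 0 to 1 (0 without WT CpG 1, WT CpG 2, DKO unstimulated 1, DKO unstimulated 2, DKO CpG 2 or DKO CpG 3). For DKO minus WT averaged over stimulation, 0 became 1 with trend and robust eBayes and 1 with the Y-linked covariate, Ifngr1 in each case, and leaving out an array gave 0 to 1. Jak2 for CpG in DKO passed with the title block (0.56, adjusted p = 0.0158), and Stat2 did so as well (1.04, adjusted p = 0.0411). The title block, the Y-linked mean and the macrophage mean all set DKO unstimulated 2 and DKO CpG 3 apart from the other DKO arrays. Fits with them are therefore not separate checks of a DKO result. No called value changed sign; 42 of 1296 values did so while passing in neither fit, none of them over 0.21 in size with the reported settings. The cause of each change was not tested. Counts over all genes for DKO minus WT after CpG ran from 3 to 794 (2 to 269 with an array left out), against 16. For CpG in DKO they ran from 412 to 1894 (422 to 1900), against 1372, and for CpG in WT from 2514 to 3505 (1273 to 3217), against 2873. No paired analysis was possible because the labels give no replicate numbers shared between groups. Values of low genes, among them many interferon genes, lie near or below the array median and may be near background.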
